A study of Mus musculus with 2 samples.

Results

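The 6 genes Lcn2, Slpi, Ltf, Chil1, C3 and Clu, which encode secreted innate defence proteins and are called the members here, were followed across the epithelial and immune cells of regenerating mouse mammary transplants. They were 6 of the 28000 rows of a table of counts of unique molecular identifiers (UMIs) for 354 single cells. The members were selected on their measured values in these same cells, by keratin class, immune cells and library, so their levels are a description and carry no test.

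To follow basal cells with or without the receptor gene Fgfr2, donor basal cells were mixed with wild-type luminal cells and placed in the cleared mammary fat pads of female nude (nu/nu) hosts aged 3 weeks, and single cells were profiled 5 days later. Both donor populations carried the R26R mT/mG reporter. In the Ctrl library the basal cells were Fgfr2+/+, and in the Fgfr2 KO library they came from Fgfr2 fl/fl mice. The basal cells of both groups had been exposed to an adenovirus that carries Cre and GFP, whereas the luminal cells of both groups had not. Each group had 1 library, so every interval below covers counting error only, and neither p-values nor standard errors can be had. The deletion was made in culture by the virus, and nude hosts lack mature T cells but keep their other immune cells.

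Milk and the mammary duct carry proteins that restrain microbes and the enzymes of inflammation. Lcn2 encodes lipocalin 2, which binds bacterial siderophores and so withholds iron. Ltf encodes lactoferrin, which binds iron itself. Slpi encodes a small inhibitor of leukocyte proteases, and Chil1 encodes a chitinase-like protein without enzyme activity. C3 is the central component of complement, and Clu encodes clusterin, a chaperone that also restrains the final steps of complement.

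Promoter windows are shown because Lcn2, Slpi and Chil1 varied together among basal cells (below). Of the 6 members, 5 had a RefSeq window (GRCm38.p6), and Clu had none in the table used here. Each window held the 250 bases before the RefSeq start, and bases 250 to 61 before the start are printed 5′ to 3′ on the strand of the gene, with capitals for a C/EBP motif (TTGCNNAA on either strand). The Lcn2 stretch is chr2:32387800-32387989 (minus strand), the Slpi stretch chr2:164356568-164356757 (minus strand) and the Chil1 stretch chr1:134181906-134182095 (plus strand).
Lcn2: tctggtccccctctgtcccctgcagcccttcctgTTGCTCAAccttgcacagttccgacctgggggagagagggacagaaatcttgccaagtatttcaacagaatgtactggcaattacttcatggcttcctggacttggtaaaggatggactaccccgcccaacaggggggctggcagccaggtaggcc
Slpi: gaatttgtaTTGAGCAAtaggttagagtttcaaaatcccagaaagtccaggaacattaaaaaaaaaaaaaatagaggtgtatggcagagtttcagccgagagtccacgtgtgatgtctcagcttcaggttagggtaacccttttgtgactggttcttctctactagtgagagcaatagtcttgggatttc
Chil1: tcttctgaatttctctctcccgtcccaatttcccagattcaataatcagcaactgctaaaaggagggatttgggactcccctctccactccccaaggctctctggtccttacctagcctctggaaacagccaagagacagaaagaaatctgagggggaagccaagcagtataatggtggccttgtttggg

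The C/EBP motif occurred in 4 of the 5 windows, those of Lcn2, Slpi, Ltf and C3, and in 9.56% of the 32851 RefSeq windows of the same length. It lay 216 to 209 bases before the start in Lcn2, 241 to 234 in Slpi, 75 to 68 in Ltf and 45 to 38 in C3. The Chil1 window had no match to it. Searched likewise on both strands were NF-kB (GGANTNTCC), STAT (TTCNNNGAA), AP-1 (TGANTCA) and TATA (TATA followed by AA) motifs, which occurred in 3.16%, 7.02%, 6.75% and 12.4% of all windows. None of these 4 motifs was found in the windows of the 5 members, and no motif overlapped another. These are matches of letters and not measured sites. In GENCODE M21 (GRCm38) the members are protein-coding genes: Lcn2 (ENSMUSG00000026822.14) at chr2:32384633-32388252, Slpi (ENSMUSG00000017002.14) at chr2:164354070-164389095, Ltf (ENSMUSG00000032496.7) at chr9:111019271-111042767, Chil1 (ENSMUSG00000064246.10) at chr1:134182176-134190181, C3 (ENSMUSG00000024164.15) at chr17:57203970-57228136 and Clu (ENSMUSG00000022037.15) at chr14:65968483-65981547. The Lcn2 and Slpi windows lay inside these longer gene models.

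Depth was unequal: 5458515 UMIs in 268 cells for Ctrl and 1253032 UMIs in 86 cells for Fgfr2 KO, with 0 cell barcodes in both libraries. Cells without a UMI of Ptprc, the gene of CD45, were classed as luminal keratin cells when Krt8 and Krt18 together had more UMIs than Krt14 and Krt5 (117 Ctrl and 31 KO cells) and as basal keratin cells in the opposite case (68 and 22). Cells with a Ptprc UMI were called CD45-positive (73 and 23), and 10 cells of each library had tied keratins. The classes followed their markers: 10 basal markers summed to 8813 CPM (UMIs of the genes per 1000000 UMIs of the cells) in basal against 1531 CPM in luminal Ctrl cells, and 10 luminal markers to 2684 against 9454 CPM. Other RNA was present too. Fibroblast markers (6 genes) reached 1770 CPM in luminal Ctrl and 613 CPM in luminal KO cells, mostly in the 27 Ctrl and 13 KO luminal cells with under 20 keratin UMIs. Fgfr2 had 42 UMIs in Ctrl basal cells and 7 in KO basal cells (32.4 and 21.9 CPM), and the table does not say which part of the gene they came from, so they do not check the deletion. GFP, meant for cells exposed to Cre, was detected in 40 of 117 luminal and 19 of 68 basal Ctrl cells (160 and 105 CPM) and in 18 of 31 luminal and 11 of 22 basal KO cells (1074 and 429 CPM), so the keratin class did not give the donor population.

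Slpi, Lcn2 and Chil1 were the 3 members higher in basal than in luminal keratin cells in both libraries, and Clu was the member higher in luminal cells in both. Slpi had the highest level, with 2416 CPM (95% interval 2332 to 2503) in basal Ctrl and 3155 CPM (2964 to 3356) in basal KO cells. In luminal cells it had 878 CPM (844 to 914) in Ctrl and 376 CPM (329 to 428) in KO. Both basal values thus lay above both luminal values. The luminal over basal ratio of Slpi was -1.46 on the log2 scale in Ctrl (-1.54 to -1.38) and -3.07 in KO (-3.28 to -2.86).

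**Figure D1:**
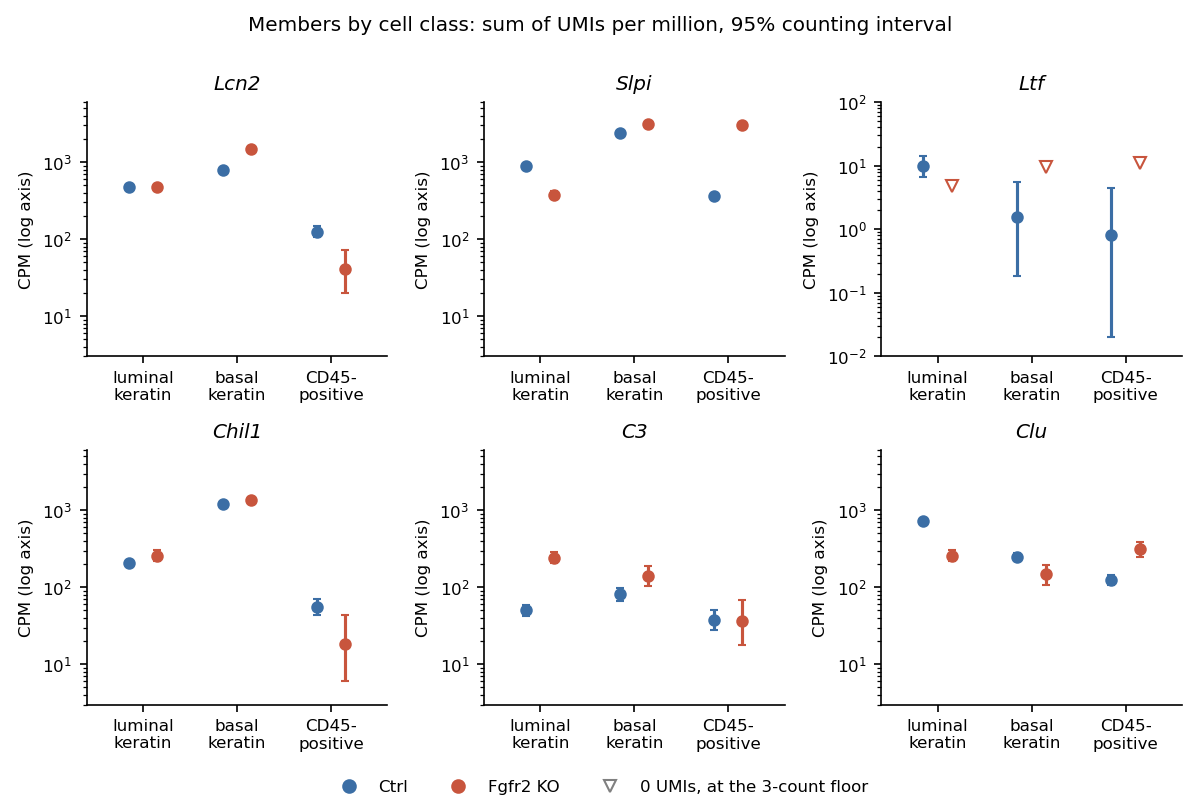
CPM of each member (log axis) in luminal keratin, basal keratin and CD45-positive cells of the Ctrl (blue) and Fgfr2 KO (red) libraries, with 95% Poisson intervals; open triangles mark 0 UMIs, drawn at the floor of 3 counts, and the Ltf panel has its own axis range. Slpi, Lcn2 and Chil1 were highest in basal keratin cells, and the Slpi value of CD45-positive KO cells (2999 CPM) rested on 1 cell.

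Lcn2 had 793 CPM (745 to 843) in basal and 475 CPM (450 to 501) in luminal Ctrl cells, a log2 ratio of luminal over basal of -0.74 (-0.86 to -0.62). In KO cells it had 1487 CPM (1356 to 1627) in basal and 470 CPM (417 to 527) in luminal cells, a log2 ratio of -1.66 (-1.88 to -1.45). Of these 3 genes, Chil1 had the widest difference between the classes in Ctrl. It reached 1223 CPM (1163 to 1285) in basal and 205 CPM (188 to 222) in luminal Ctrl cells, 5.97-fold higher in basal cells, and 1359 against 258 CPM, 5.27-fold higher, in KO cells. For these 3 genes the direction was alike in both libraries, and its size differed from gene to gene.

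Clu had the opposite distribution. It had 721 CPM (690 to 753) in luminal and 247 CPM (221 to 276) in basal Ctrl cells, and 258 CPM (219 to 301) against 147 CPM (108 to 196) in KO cells. The luminal over basal log2 ratio was 1.55 (1.37 to 1.72) in Ctrl and 0.81 (0.33 to 1.31) in KO. Ltf was nearly absent. It had 28 UMIs in 9 of 117 luminal Ctrl cells (9.94 CPM, 6.60 to 14.4), 2 UMIs in basal and 1 UMI in CD45-positive Ctrl cells. The KO library had 0 Ltf UMIs in every class, and 0 of 31 luminal KO cells allows a share of cells with a UMI of up to 9.68%, taken at 3 cells, or 11.2% by the Clopper-Pearson interval. The Ctrl luminal over basal log2 ratio of Ltf was 2.69, with an interval from 0.70 to 5.80.

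Across the 6 members, the median log2 ratio of luminal over basal cells was -0.72 in Ctrl and, across the 5 with a ratio, -1.66 in KO, beside 0.12 and 0.16 over all genes with at least 20 UMIs. At least 2-fold lower in luminal cells were 2 members in Ctrl (Slpi and Chil1) and 3 in KO (Lcn2, Slpi and Chil1). Of all genes, 5.07% in Ctrl and 7.23% in KO passed that mark. At least 2-fold higher in luminal cells were 2 members in Ctrl (Ltf and Clu) and 0 in KO, where the shares of all genes were 9.64% and 14.2%. The members were picked with this contrast in view, so these counts only describe them.

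C3 could not be read from the keratin classes alone. It had 50.4 CPM in luminal and 81.8 CPM in basal Ctrl cells, and 243 CPM in luminal and 141 CPM in basal KO cells. In luminal Ctrl cells, 107 of its 142 UMIs lay in the 27 cells with under 20 keratin UMIs, and in luminal KO cells 136 of 150 UMIs lay in 13 such cells. The 3 luminal Ctrl cells with the most C3 held 36, 33 and 17 UMIs with 5, 7 and 11 keratin UMIs, and each had all 6 fibroblast markers. In KO, 94 and 41 C3 UMIs came from 2 cells with 2 and 4 keratin UMIs and 5 fibroblast markers each. The fibroblast marker sum was 12485 CPM in low-keratin and 378 CPM in the other luminal Ctrl cells, and 3182 against 153 CPM in KO. The sum of 8 macrophage markers was 4953 against 377 CPM in Ctrl and 7730 against 141 CPM in KO. Within each library the luminal C3 UMIs thus lay mostly in low-keratin cells, where fibroblast and macrophage markers were also high. Between the libraries C3 and the fibroblast sum went opposite ways. In low-keratin luminal cells C3 had 330 CPM in Ctrl and 1452 CPM in KO, whereas the fibroblast sum was lower in KO. The part of either kind of RNA in the result was not tested.

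Among cells with at least 20 keratin UMIs, C3 followed Slpi, Lcn2 and Chil1. There it had 14.0 CPM (9.78 to 19.5) in 90 luminal and 71.5 CPM (57.2 to 88.3) in 59 basal Ctrl cells, 5.09-fold higher in basal cells. In KO it had 26.7 CPM (14.6 to 44.9) in 18 luminal and 155 CPM (112 to 209) in 16 basal cells, 5.79-fold higher in basal cells. The log2 ratio of luminal over basal cells in KO was therefore 0.79 over all cells and -2.53 with this minimum. The other members kept their direction under it: in Ctrl, Chil1 was 8.55-fold, Slpi 2.62-fold and Lcn2 1.65-fold higher in basal cells, and Clu was 3.10-fold higher in luminal cells.

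The same order appeared along the balance of the 4 keratins. CD45-negative cells with at least 20 keratin UMIs were grouped by the share of Krt14 and Krt5 among them, with edges at 10%, 50% and 90% set after the data had been seen. Chil1 had 76.9, 232, 924 and 3882 CPM from the lowest to the highest share in Ctrl (51, 39, 46 and 13 cells). Lcn2 had 502, 457, 690 and 1486 CPM, and C3 had 14.8, 13.3, 61.9 and 137 CPM. Their intervals overlapped between the first 2 groups, and both were higher in each of the next groups, where the intervals of C3 were close (47.8 to 78.9 and 85.1 to 210 CPM). Slpi had its lowest level in the second group, with 1191, 730, 2411 and 3372 CPM. Clu went the other way with 846, 757, 283 and 98.2 CPM, and Ltf had 18, 10, 2 and 0 UMIs. The sizes leaned on single cells: 1 cell held 421 of the 970 Chil1 UMIs of the third group and another 286 of the 593 of the last, without which Chil1 had 530 and 2146 CPM. Without the cell with the most UMIs of the member in each group, an alternative chosen after the data had been seen, C3 had 9.62 CPM in the first and Clu 62.5 CPM in the last group. The last group still had the highest Chil1, Lcn2, Slpi and C3 and the lowest Clu.

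**Figure D2:**
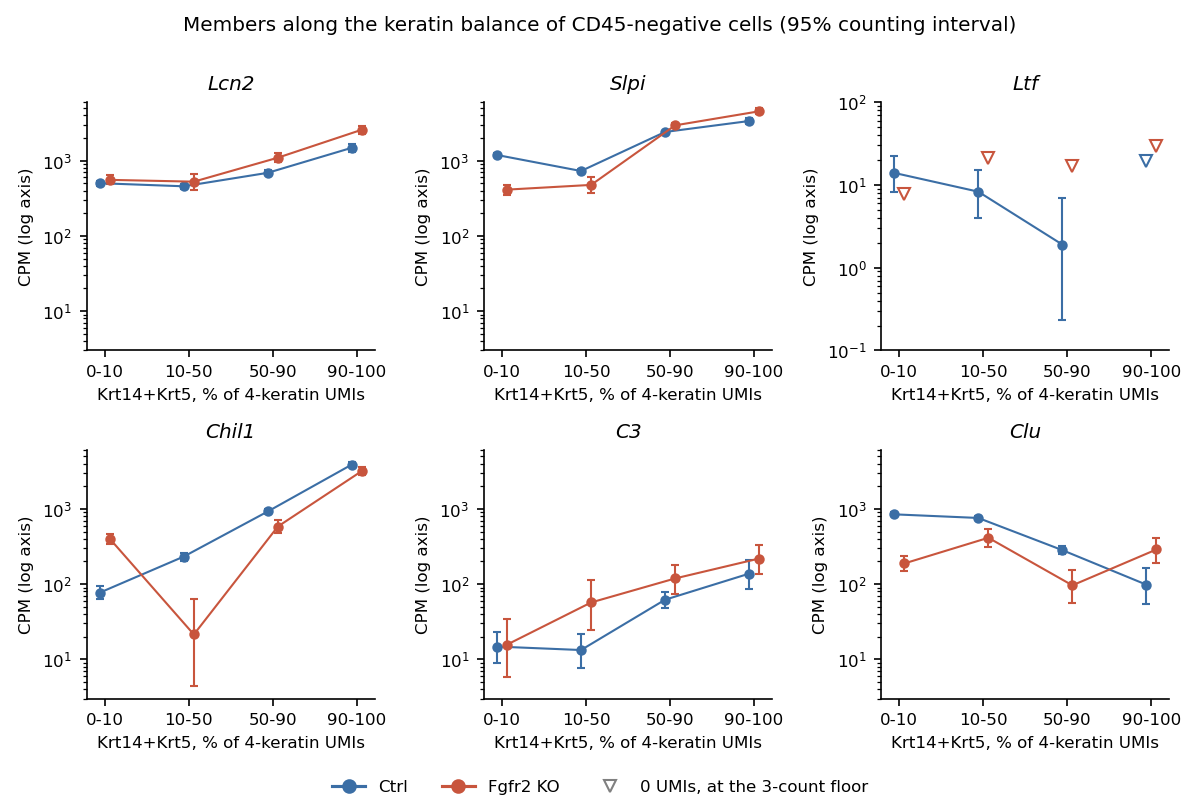
CPM of each member (log axis) in CD45-negative cells with at least 20 keratin UMIs, by the share of Krt14 and Krt5 among UMIs of the 4 keratins, for Ctrl (blue) and Fgfr2 KO (red), with 95% Poisson intervals; open triangles mark 0 UMIs at the floor of 3 counts. Chil1, Slpi, Lcn2 and C3 peaked in cells with 90 to 100% basal keratins in both libraries, and Ctrl Clu was lowest there.

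The KO library held 15, 3, 9 and 7 cells in these groups. Lcn2 had 556, 527, 1097 and 2584 CPM, and Slpi had 413, 477, 2953 and 4541 CPM. C3 had 15.7, 56.9, 119 and 219 CPM. These 3 members were again highest in the cells with the highest basal keratin share. Chil1 had 400, 21.3, 583 and 3190 CPM, and 80 of the 153 UMIs of the first group lay in 1 cell. Clu had 188, 413, 96.2 and 288 CPM, with no single direction, and 22 of the 29 UMIs of the last group lay in 1 cell. Without such top cells the last group had 1602 CPM of Chil1, 2092 CPM of Lcn2, 4112 CPM of Slpi and 183 CPM of C3, each still the highest, and 86.2 CPM of Clu. The first group then had 195 CPM of Chil1, 342 CPM of Lcn2 and 5.34 CPM of C3. The second group rested on 1 of its 3 cells, which held 70 of 74 Lcn2 and 63 of 67 Slpi UMIs.

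The luminal keratin cells were not uniform. They were divided by whether more of 8 hormone-sensing markers (such as Esr1, Pgr and Prlr, receptors for ovarian and pituitary hormones) or more of 8 secretory progenitor markers (such as Elf5 and Kit) were detected. This is a range and not a type: 24 of the 77 hormone-sensing and 11 of the 27 secretory progenitor Ctrl cells were 1 marker apart, as were 3 of the 17 and 5 of the 8 KO cells. A further 13 Ctrl and 6 KO cells had as many markers of each kind and were on neither side. Lcn2 had 1220 CPM (1140 to 1304) on the secretory progenitor side and 206 CPM (186 to 228) on the hormone-sensing side in Ctrl. In KO it had 1164 CPM in 8 cells and 244 CPM in 17 cells. Chil1 had 652 against 53.9 CPM in Ctrl and 847 against 52.5 CPM in KO. Lcn2 was thus 5.93-fold and 4.78-fold higher on the secretory progenitor side, and Chil1 12.1-fold and 16.1-fold, in Ctrl and KO. Single cells moved these sizes but not their direction: 1 KO cell held 84 of the 102 hormone-sensing Lcn2 UMIs, and another 80 of the 136 secretory progenitor Chil1 UMIs. Without the top cell of each side, the folds were 11.1 and 13.8 for Lcn2 and 10.96 and 10.4 for Chil1. These alternatives were chosen after the data had been seen.

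**Figure D3:**
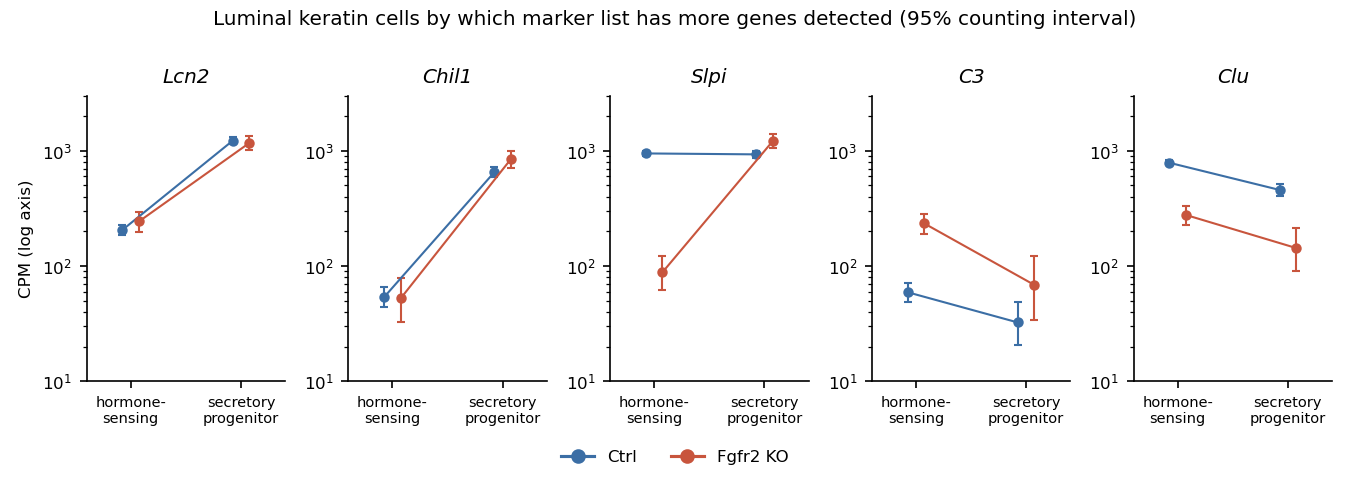
CPM (log axis) of 5 members in luminal keratin cells with more hormone-sensing or more secretory progenitor markers detected, for Ctrl (blue, 77 and 27 cells) and Fgfr2 KO (red, 17 and 8 cells), with 95% Poisson intervals. Lcn2 and Chil1 were higher on the secretory progenitor side in both libraries, whereas Slpi in KO (1208 against 88.4 CPM as drawn) turned with 1 cell left out for Ptprc (1208 against 1493 CPM with no filter). The C3 value of KO hormone-sensing cells (234 CPM) had 94 of its 98 UMIs in 1 cell. Without the top cells the KO log2 ratio of C3, secretory progenitor over hormone-sensing, turned from -1.77 to 2.16.

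Clu was higher on the hormone-sensing than on the secretory progenitor side, with 785 against 457 CPM in Ctrl and 277 against 143 CPM in KO. Without the top cells the Ctrl difference widened from 1.72-fold to 2.77-fold. The cells with as many markers of each kind had still more Clu, 997 CPM in Ctrl and 531 CPM in KO. There 1 cell held 140 of 251 Ctrl and another 18 of 20 KO UMIs. Slpi had 946 CPM on the hormone-sensing and 929 CPM on the secretory progenitor side in Ctrl, a log2 difference of -0.03 (-0.16 to 0.10). In KO it had 88.4 CPM in the 17 hormone-sensing and 1208 CPM in the 8 secretory progenitor cells. That KO value left out the cell with the most Slpi. A KO cell with 83994 UMIs, 607 of Krt8 and Krt18, all 8 hormone-sensing markers and 0 secretory progenitor markers had 799 Slpi UMIs, and it was classed as CD45-positive for 1 Ptprc UMI. Its 8 macrophage markers summed to 10 UMIs. With no filter on Ptprc the KO hormone-sensing side had 1493 CPM of Slpi in 22 cells, and the log2 ratio of secretory progenitor over hormone-sensing cells turned from 3.77 to -0.31 (-0.54 to -0.08). When the top cell of each side was then left out, it was 3.83.

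Between the libraries, basal keratin cells differed by less than 2-fold in sum for each of the 5 members with a ratio. Lcn2 was 1.88-fold higher in KO, a log2 ratio of 0.91 (0.75 to 1.07), and C3 was 1.72-fold higher, 0.78 (0.25 to 1.30). Slpi was 1.31-fold higher, 0.38 (0.28 to 0.49). These 3 intervals lay above 0, also without the cell that held the most of each member. The log2 ratio of Chil1 was 0.15, with an interval from -0.0047 to 0.31, and without those cells it was -0.15 (-0.36 to 0.05). Clu was 1.68-fold lower in KO, with a log2 ratio of -0.75 (-1.22 to -0.30). In KO 1 cell held 22 of its 47 KO UMIs and in Ctrl 1 cell held 82 of its 320 Ctrl UMIs, and without them the log2 ratio was -1.18 (-1.83 to -0.58), over 2-fold lower. Ltf had 2 and 0 UMIs, so it has no ratio.

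The median log2 ratio of KO over Ctrl over 5 members in basal cells was 0.38, beside -0.12 over 6865 genes. None of the 5 was 2-fold higher or lower, where 4.37% of all genes were at least 2-fold higher and 11.2% at least 2-fold lower. Lcn2 had 8.05 UMIs per 10000 in the median basal Ctrl cell and 9.06 in the median basal KO cell, so its median differed less than its sum. For Slpi these medians were 18.04 and 32.7, and for Chil1 1.48 and 4.57. The fibroblast marker sum in basal cells was 1134 CPM in Ctrl, where 1 cell with 8 keratin UMIs held 1319 of 1469 UMIs (118 CPM without it), and 38 CPM in KO, and its part in these ratios was not tested. With at least 20 keratin UMIs per cell, where the fibroblast sums were 121 and 28.8 CPM, the log2 ratios were 1.05 for Lcn2, 0.48 for Slpi, 0.23 for Chil1, 1.12 for C3 and -0.65 for Clu, so that Lcn2 and C3 were then over 2-fold higher in KO.

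In luminal keratin cells, Clu and Slpi were lower in KO. Clu was 2.80-fold lower, with a log2 ratio of -1.48 (-1.73 to -1.25), and it was lower on both sides of the luminal range, 3.19-fold among secretory progenitor and 2.83-fold among hormone-sensing cells. Slpi was 2.34-fold lower, with a log2 ratio of -1.22 (-1.42 to -1.03). Lcn2 had a log2 ratio of -0.01 (-0.20 to 0.17) in sum, which rested on few cells: without the top cell of each library it was -0.27 (-0.49 to -0.05), and with at least 20 keratin UMIs per cell it was 0.19 (-2.1e-05 to 0.38). On each side of the luminal range taken alone it was -0.71 (-1.03 to -0.41, secretory progenitor) and -1.03 (-1.81 to -0.33, hormone-sensing) without the top cells, against -0.07 and 0.24 with them. Ltf had 0 UMIs in KO, so its ratio was a bound at 3 counts over the 31 cells, 2.04-fold lower than Ctrl. The Poisson upper limit of KO was 5.98 CPM, close to the lower limit of Ctrl (6.60 CPM), so a 2-fold difference was not shown. The bound fell under 2-fold with at least 20 keratin UMIs per cell (1.96-fold) and without the top cells (-0.51 on the log2 scale). On the secretory progenitor and hormone-sensing sides alone the bounds lay above 0 (0.41 and 0.27), which gives no direction.

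The Slpi value rested on 1 cell. When no cell was left out for Ptprc, the KO cell with 799 Slpi UMIs entered the luminal class and the log2 ratio became 0.80. When the cell with the most Slpi was then left out of each library, it was -0.90 (-1.10 to -0.71). Among hormone-sensing cells Slpi was 10.7-fold lower in KO, and with no filter on Ptprc its log2 ratio there was 0.87, or -2.84 (-3.32 to -2.39) when the top cells were then left out. Slpi was uneven in Ctrl as well, where 1 cell held 431 and another 395 of the 2475 luminal UMIs, and 5 of the 117 cells held at least 50%. Lcn2 and Chil1 were also concentrated. In KO, 2 of 31 luminal cells held 85 and 84 of the 290 Lcn2 UMIs, and 1 cell held 80 of the 159 Chil1 UMIs.

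Single cells set the direction of Chil1 and the size of C3 in luminal cells. Chil1 had a log2 ratio of KO over Ctrl of 0.33 (0.07 to 0.59), of -0.38 (-0.75 to -0.04) without the top cell of each library and of 0.97 (0.69 to 1.24) among cells with at least 20 keratin UMIs. C3 was 4.82-fold higher in KO, a log2 ratio of 2.27 (1.93 to 2.61). It was 1.30 (0.81 to 1.78) without the top cells and 0.93 (-0.08 to 1.86) among cells with at least 20 keratin UMIs. The median over the 6 members was -0.52, beside -0.06 over 9461 genes. It lay between the Lcn2 ratio (-0.01) and the Ltf bound (-1.03), so it rested in part on a gene with 0 KO UMIs. The median turned to 0.064 with no filter on Ptprc and to 0.074 with at least 2 Ptprc UMIs for CD45-positive cells. At least 2-fold lower in KO were 3 members (Slpi, Clu and, only at its bound of 3 counts, Ltf, against 8.58% of all genes), and at least 2-fold higher was C3 alone (4.07% of all genes).

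**Figure D4:**
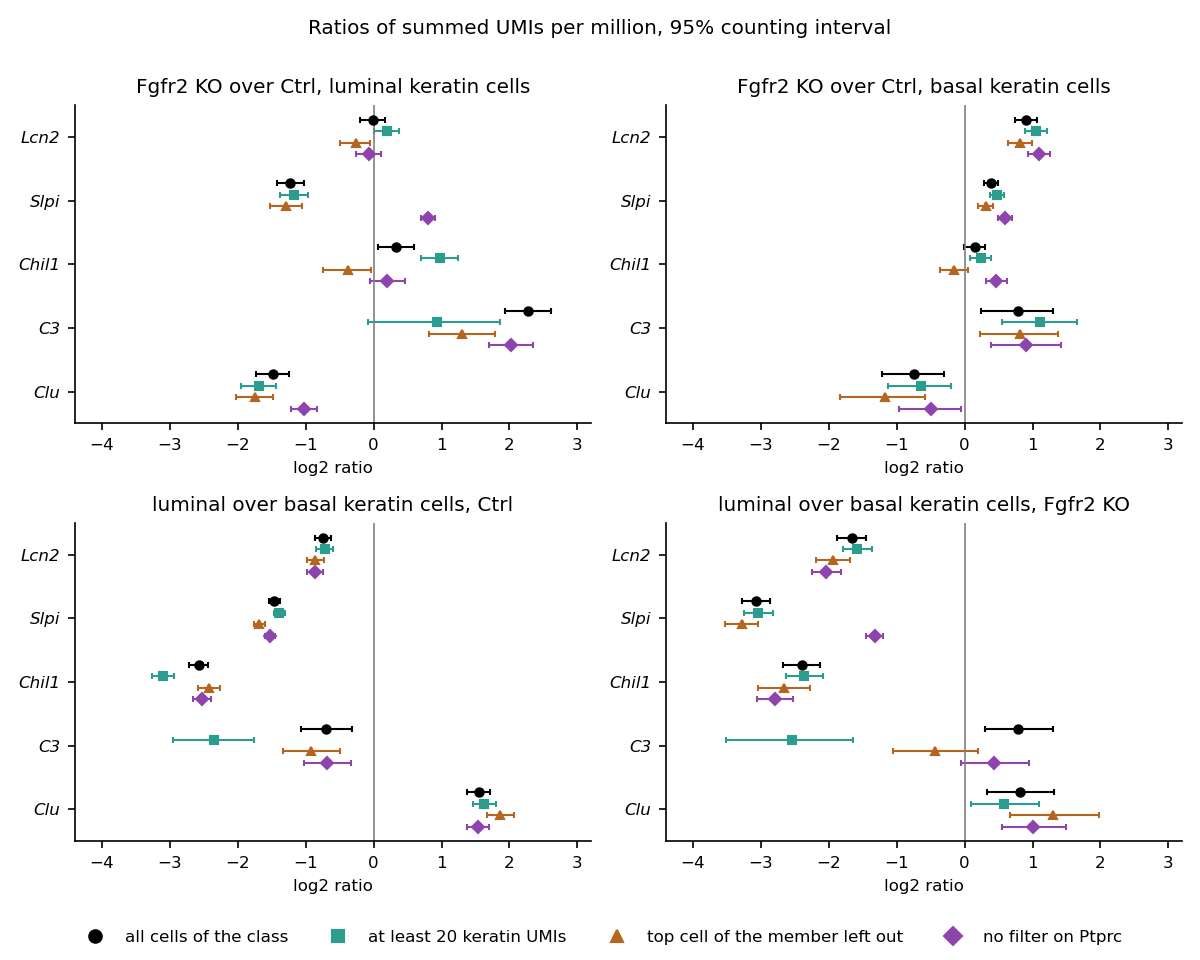
Log2 ratios of CPM with 95% exact binomial intervals for 5 members in 4 comparisons, over all cells of the class (black circles), cells with at least 20 keratin UMIs (green squares), without the top cell of the member in each group (brown triangles) and with no filter on Ptprc (purple diamonds). Clu kept its side of 0 in all panels and settings drawn. Slpi crossed 0 in luminal cells with no filter on Ptprc (0.80), and C3 in KO with at least 20 keratin UMIs (-2.53) or without top cells (-0.43). Between the libraries, Chil1 crossed 0 without top cells (-0.38 in luminal and -0.15 in basal cells). Lcn2 did so in luminal cells with at least 20 keratin UMIs (0.19).

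Single cells show how the levels were spread. Slpi had a UMI in 67 of 68 basal Ctrl cells (98.5%) and Lcn2 in 61 (89.7%). In CD45-positive Ctrl cells, taken as the background for an epithelial gene, these shares were 79.5% and 39.7%. After thinning each cell to 5000 UMIs, Slpi had a UMI in 92.4% of basal, 58.4% of luminal and 47.1% of CD45-positive Ctrl cells. Lcn2 had 75.8%, 39.8% and 22.1%, in the same order. In Ctrl, basal cells thus stood above the immune cells by shares as well as by levels, and luminal cells by less. In KO, the thinned shares of Lcn2 were 89.5% in basal, 33.3% in luminal and 35.3% in CD45-positive cells, so the luminal share was not above that of the immune cells there, although the luminal level was (470 against 40.5 CPM). Before thinning, Lcn2 had a UMI in 15 of 18 KO luminal cells with at least 20 keratin UMIs and in 2 of the other 13. The median depths of these cells were 25184 and 6219 UMIs. For Slpi the thinned KO shares were 84.2%, 44.4% and 23.5%. The median depth was 15579 UMIs in basal, 20160 in luminal and 12228 in CD45-positive Ctrl cells. Ltf had 3.54%, 1.52% and 1.47% in luminal, basal and CD45-positive cells.

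**Figure D5:**
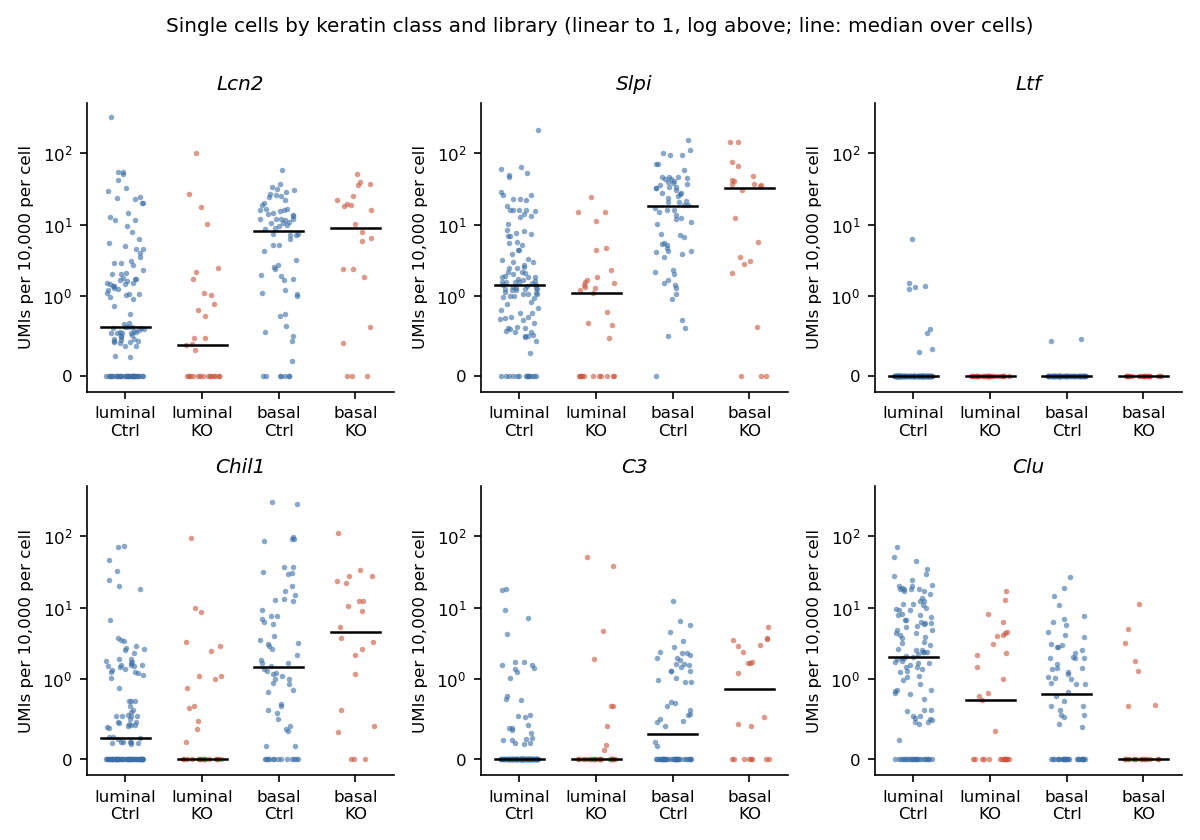
UMIs per 10000 in each single cell (points; linear to 1, logarithmic above) for luminal and basal keratin cells of Ctrl (blue, 117 and 68 cells) and Fgfr2 KO (red, 31 and 22 cells), with the median over cells as a line. Median Slpi was 18.04 and 32.7 in basal cells against 1.44 and 1.10 in luminal cells, and the top luminal cells reached basal levels.

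CD45-positive cells had lower levels of Lcn2 and Chil1 than either keratin class, with 125 and 56.1 CPM in Ctrl and 40.5 and 18.4 CPM in KO. The Ctrl values included 7 CD45-positive cells with at least 20 keratin UMIs, of which 1 cell with 60858 UMIs and 1 Ptprc UMI held 64 of 156 Lcn2 and 209 of 457 Slpi UMIs. Without those 7 cells, Ctrl levels were 38.0 CPM for Lcn2, 213 CPM for Slpi, 34.6 CPM for Chil1, 49.1 CPM for C3 and 43.6 CPM for Clu. In KO without the 1 such cell, Slpi was at 80.0 CPM and Clu at 107 CPM, with 17 of the 20 Clu UMIs in 1 cell. The immune cells left had macrophage markers at 22519 CPM in Ctrl and 16525 CPM in KO. Lcn2 and Ltf are also granule proteins of neutrophils. Of 11 neutrophil markers, Ly6g, Ngp, Mpo and Elane had 0 UMIs in every class, and the list summed to 55 CPM in CD45-positive Ctrl cells and at most 20 CPM in the keratin classes. In CD45-positive Ctrl cells 5 of the 11 had a UMI, and 2 of those 73 cells had at least 3 of them. The luminal Ctrl cells had 57 UMIs of 2 of these markers. Their part in the Lcn2 and Ltf counts was not tested.

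Lcn2, Chil1 and Slpi varied together among basal cells, and in luminal cells mainly Lcn2 and Chil1 did. Over 68 basal Ctrl cells the Pearson correlation of log values was 0.73 for Lcn2 and Chil1, 0.63 for Slpi and Chil1 and 0.51 for Lcn2 and Slpi. Over 22 basal KO cells it was 0.73, 0.61 and 0.50. In luminal cells Lcn2 and Chil1 had 0.58 (117 Ctrl cells) and 0.66 (31 KO cells), whereas Slpi and Chil1 had 0.24 in both, and Lcn2 and Slpi 0.14 and 0.32. Clu was low where Lcn2 and Slpi were high in basal Ctrl cells, with -0.45 for each pair, but the KO values were 0.16 and 0.15. These cells share a library and differ in depth, so the values describe these cells and have no p. At least 4 of the 6 members had a UMI in 46 of 68 basal (67.6%), 58 of 117 luminal (49.6%) and 21 of 73 CD45-positive Ctrl cells (28.8%). In KO these were 15 of 22 (68.2%), 9 of 31 (29.0%) and 2 of 23 (8.7%).

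Among 4683 genes detected well enough over the 185 CD45-negative Ctrl keratin cells, the gene most like Lcn2 was Igfbp5, which encodes a binding protein of insulin-like growth factors (Pearson 0.75, and 0.85 over 53 KO cells). It was also the gene most like Chil1 (0.67 and 0.74). Next for both were genes of matrix proteins, Emid1 (0.65) and Col9a2 (0.61) for Lcn2 and Col9a2 (0.63) and Col9a3 (0.62) for Chil1. Slpi was most like Mt1, a metallothionein gene (0.61), then Col9a3 (0.56) and Emb (0.52). Clu was most like Cd82 (0.69), 2200002D01Rik (0.66) and the luminal keratin gene Krt7 (0.66). C3 was most like Igfbp6 (0.63, but -0.09 in KO), Col5a2 (0.62) and Col3a1 (0.60), of which the last is a fibroblast marker. For Ltf, with 30 UMIs, the highest values were 0.34 (Hbs1l), 0.31 (Nfx1) and 0.30 (Iffo2), which at such counts are no pattern.

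Other secreted defence genes were mostly on the luminal side in Ctrl. Of 35 such genes, 19 had at least 20 UMIs in the luminal and basal Ctrl cells, and 11 of these were at least 2-fold higher in luminal and 1 in basal cells, with a median log2 ratio of 1.06 beside 0.12 over all genes. Of all genes, 9.64% were at least 2-fold higher and 5.07% at least 2-fold lower in luminal cells. Macrophages express several of these genes, such as Cd14 and Spp1, and macrophage markers had 903 CPM in luminal and 408 CPM in basal Ctrl cells, and 4953 CPM in the luminal cells with under 20 keratin UMIs, and their part was not tested. Cd14, a co-receptor for bacterial lipopolysaccharide, had 141 CPM in luminal and 18.5 CPM in basal Ctrl cells. Spp1, which encodes osteopontin, had 565 against 126 CPM, with 531 of its 1592 luminal UMIs in 1 cell. S100a8 had 18.8 against 0.772 CPM (53 against 1 UMI), and Hp, the haptoglobin gene, 36.2 against 1.54 CPM (102 against 2 UMIs). Ptx3 was the gene at least 2-fold higher in basal cells, with 121 against 36.6 CPM.

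Between the libraries, 19 of these genes in luminal and 15 in basal cells had at least 20 UMIs. None of them was 2-fold higher in KO, and 6 in each class were at least 2-fold lower, with medians of -0.59 and -0.36 beside -0.06 and -0.12 over all genes. Of all genes, 4.07% and 4.37% were at least 2-fold higher and 8.58% and 11.2% at least 2-fold lower, in luminal and basal cells. In luminal cells fibroblast markers had 1770 CPM in Ctrl and 613 CPM in KO (1346 and 314 CPM without the top cell of each), and macrophage markers 903 and 1293 CPM. In basal cells fibroblast markers (1134 CPM in Ctrl, of which all but 118 CPM came from 1 cell, and 38 CPM in KO) and macrophage markers (408 and 235 CPM) were lower in KO too, and their part was not tested. Ptx3, a soluble pattern recognition protein, had 4.86 against 36.6 CPM in luminal (3 against 103 UMIs) and 28.2 against 121 CPM in basal cells (KO against Ctrl), where 1 Ctrl cell held 83 of 157 UMIs. In basal cells Lgals3, the galectin 3 gene, had 53.2 against 250 CPM, Wfdc18, a relative of Slpi, 28.2 against 121 CPM, and Lyz2, a lysozyme gene of macrophages, 97.0 against 267 CPM. In luminal cells Saa3, an acute-phase gene, had 16.2 against 56.4 CPM, S100a8 1.62 against 18.8 CPM and Wfdc12 1.62 against 7.45 CPM, with 1 KO UMI each. Lcn2 and Slpi were instead higher in KO basal cells, as given above.

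Of 21 further complement genes in the table, 12 had at least 20 UMIs in the luminal comparison of KO with Ctrl, and 3 were at least 2-fold higher and 3 lower (4.07% and 8.58% of all genes). The initiator genes C1qa and C1qc had 135 and 125 CPM in KO against 41.5 and 40.1 CPM in Ctrl, beside macrophage marker sums of 1293 and 903 CPM (714 and 767 CPM without the top cell of each), whose part was not tested. The regulators Cd55 and Cd59a, which protect cell surfaces from complement, had 3.24 against 14.2 CPM (2 against 40 UMIs) and 4.86 against 18.1 CPM (3 against 51 UMIs). In basal cells 9 genes had enough UMIs and 2 were lower, Cfb (3.13 against 20.1 CPM, 1 against 26 UMIs) and C1qa (9.39 against 33.2 CPM, 3 against 43 UMIs), beside 11.2% of all genes.

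Of the receptors of the members, 7 genes in luminal and 5 in basal cells had at least 20 UMIs, too few for a count of 0 past 2-fold to be read against the shares of all genes (4.07% and 8.58% higher and lower in luminal, 4.37% and 11.2% in basal cells). Cd44, a receptor for several matrix ligands, had 65.7 CPM in KO and 110 CPM in Ctrl basal cells. Of the inducers and transducers of the response, 20 in luminal and 18 in basal cells had at least 20 UMIs, and 1 in each class was at least 2-fold higher in KO, a share near that of all genes (4.07% and 4.37%). In basal cells this was Relb, a subunit of NF-kB (72.0 CPM in KO against 32.4 CPM in Ctrl). In luminal cells it was Il6 (14.6 against 4.26 CPM, with all 9 KO UMIs in 1 cell). There 1 gene was at least 2-fold lower, the epithelial factor Elf3 (21.1 against 51.1 CPM), beside 8.58% of all genes. Between luminal and basal KO cells, 16 of these genes had at least 20 UMIs, with a median log2 ratio of -0.05 beside 0.16 over all genes. In luminal cells 1 was at least 2-fold higher and 1 lower (14.2% and 7.23% of all genes). The lower gene was Socs3, an inhibitor that STAT3 induces, with 614 CPM in basal and 217 CPM in luminal KO cells.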

How the data were processed

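Single cells of 2 libraries (Ctrl and Fgfr2 KO, 1 per group) were measured by droplet RNA sequencing on the 10x Genomics system. The authors deposited raw UMI counts per gene and cell, made with Cell Ranger (2.1.1 per the labels, with mm10) and joined by its aggregation step; the annotation and any thinning of reads to equal depth are not given in the sources used here. Cells were assigned to libraries by column prefix and to classes by Ptprc (at least 1 UMI) and the 4 keratins. For each class, the UMIs of a gene were added up and scaled to the class total (CPM). Intervals at the 95% level are exact Poisson for CPM, Clopper-Pearson for shares and exact conditional binomial for ratios, and cover counting error only. A ratio against 0 UMIs is a bound at 3 counts over the group, and none is given where both groups have at most 3. Such bounds enter the medians of members. Comparisons with all genes used genes with at least 20 UMIs over both groups, and medians of members have no test. Doublets were kept; Scrublet in scanpy 1.11.5 called 3 Ctrl and 1 KO cell. The keratin-share groups and the luminal division between libraries were added after the data had been seen. Ratios were tested on simulated data with known folds, drawn as Poisson counts per group. This is the model of the intervals and lacks the clustering of UMIs in single cells, so it does not show how the intervals cover these data. Depth ranged from 1367 to 96751 UMIs per cell.

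The members, lists and markers were chosen with earlier results of these data known. All 6 members are named. Named beside each are the 3 genes with the highest Pearson correlation of log1p(UMIs per 10000) over CD45-negative Ctrl keratin cells (at least 100 UMIs, in at least 10% of cells), and per pathway list and comparison at most 4 genes with at least 20 UMIs and the largest log2 ratios. Alternatives were another Ptprc minimum or none, 20 keratin UMIs, a 2-fold keratin margin, removal of cells over 25% mitochondrial UMIs, of doublets, of cells with 3 fibroblast markers or of top cells, per-cell means and a median-ratio scaling. Python 3.11.15, numpy 2.4.6, scipy 1.17.1, pandas 2.3.3 and matplotlib 3.10.9 were used. The result of 1 gene of the pathway lists is not reported here.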

Additional observations from a re-analysis of the deposited data

Results flagged for a closer look

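Slpi had log2 ratios of KO over Ctrl in opposite directions in the keratin classes, -1.22 in luminal and 0.38 in basal cells; the difference was not tested, and with no filter on Ptprc the luminal value was 0.80. C3 had log2 ratios of luminal over basal cells in opposite directions in the libraries, -0.70 in Ctrl and 0.79 in KO, which was not tested either; with at least 20 keratin UMIs per cell both were negative (-2.35 and -2.53). Cells with tied keratins, which enter no comparison, had counts of several members above the floor of 3. In the 10 tied Ctrl cells there were 37 C3 UMIs, of which 31 lay in 1 cell, 22 Slpi UMIs and 10 Clu UMIs, beside fibroblast markers at 16131 CPM (5049 CPM without 1 cell) and macrophage markers at 11588 CPM. In the 10 tied KO cells there were 6 Slpi and 4 Chil1 UMIs, beside fibroblast markers at 66 CPM and macrophage markers at 12603 CPM.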

How the results depend on the processing

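No paired analysis was possible because each group had 1 library. For the median over the members, 22 of 40 alternative values stayed within the counting range of the reported one. The KO over Ctrl median in luminal cells (-0.52, with Ltf at its bound) turned to 0.074 with at least 2 Ptprc UMIs and to 0.064 with no filter on Ptprc. It was -0.39 with 20 keratin UMIs, -0.64 with a 2-fold keratin margin, -0.30 without doublets, -0.77 without cells with 3 fibroblast markers and -0.42 as per-cell means. In basal cells (0.38) it was 0.59 with no filter on Ptprc, 0.19 without cells with 3 fibroblast markers and 0.50 under the median-ratio scaling. The luminal over basal median in Ctrl (-0.72) was -1.05 with 20 keratin UMIs and -1.16 with a 2-fold keratin margin. In KO (-1.66) it was -1.16 with at least 2 Ptprc UMIs, -1.32 with none, -2.36 with 20 keratin UMIs, -2.10 without cells with 3 fibroblast markers, -1.42 as per-cell means and -1.94 without top cells.

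Of 241 alternative ratios of single members, 166 stayed within the interval of the reported one. Another 9 changed sign where the reported interval lay off 0, and 66 left the interval otherwise. The 66 include ratios that changed sign from an interval that held 0, such as Chil1 in basal and Lcn2 in luminal cells (KO over Ctrl). Slpi in luminal cells (KO over Ctrl) turned to 0.82 with at least 2 Ptprc UMIs and to 0.80 with no filter on Ptprc. Chil1 in luminal cells turned to -0.074 without cells with 3 fibroblast markers, to -0.38 without top cells and to -0.51 with no filter on Ptprc and no top cells, an alternative chosen after the data had been seen. C3, luminal over basal in KO, turned to -2.53 with 20 keratin UMIs, -2.42 without cells with 3 fibroblast markers, -0.43 without top cells and -0.69 with no filter on Ptprc and no top cells. The shares of all genes past 2-fold moved by over 1.5 times in 7 of 16 alternatives: the share higher in KO luminal cells was 24.9% with a minimum of 1 UMI and 2.102% with 50. The causes were not tested. With 86 KO cells, 1 cell can decide a member's sum, and Ltf (31 UMIs in all) is too sparse for any order of levels beyond the luminal Ctrl cells.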
